A study of Homo sapiens with 6 samples.

Results

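The baseline transcriptome of RKO cells, a line established from a human colon carcinoma, was described from the 3 libraries of cells with wild-type GSK3B, out of 6 libraries in the series. The members were chosen by their titles, which name them as wild-type replicates 1 to 3; the other 3 libraries come from GSK3B knockout cells and enter no value here. The labels give no treatment, no time and no passage, and they do not say whether the replicates were separate cultures, so the spread between the 3 libraries may be technical. Messenger RNA was selected by its poly(A) tail and sequenced as paired 150 bp reads, and the deposited values are counts per gene symbol.

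RKO is known as a poorly differentiated line that lacks DNA mismatch repair and carries the CpG island methylator phenotype, in which many promoters rich in CpG dinucleotides are methylated and the genes behind them are silent. A normal colon crypt is built from stem cells at its base, whose daughters become absorptive colonocytes, goblet cells and enteroendocrine cells under transcription factors such as CDX2 and HNF4A. Colon cancers keep parts of this programme and lose others, and they read growth signals through receptor tyrosine kinases such as EGFR and MET.

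Levels are given as CPM, a gene's count scaled by the library total. Each library held 28278 symbols, with total counts of 32565829 to 33052404 and 17395 to 17419 symbols with a count. A gene is called expressed here when it had at least 1 CPM in each of the 3 libraries, which 12868 symbols (45.5%) did, and at the floor when it had at most 3 counts in each, which 11759 (41.6%) did. The floor of 3 counts, the limit that a count of 0 allows, corresponds to 0.0908 to 0.0921 CPM and covers counting error only. Among 19261 protein-coding symbols 59.4% were expressed and 30.4% at the floor. Longer genes collect more reads. Apart from a list of the most counted genes, levels of different genes are ordered as CPM per kilobase, over the union of all annotated exons. Orders and ratios per kilobase rest on that length, and their SD covers the spread between libraries only.

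Reference genes show how a 0 can be read. Of 267 genes of the ribosome, proteasome, spliceosome, replication machinery and similar complexes that dividing cells need, 261 were expressed, and of 573 olfactory receptors, keratin-associated proteins, taste receptors and defensins, 2 were (OR2A4 and OR2A7, at 3.48 and 2.40 CPM). Yet RPL7A, a protein of the large ribosomal subunit, was listed at 0 in all 3 libraries, and so were EEF1B2 (a translation elongation factor subunit), EIF3K, CANX (calnexin) and TJP1 (the tight junction scaffold ZO-1), which were picked out after their values were seen. A 0 in these tables is therefore not proof that a gene was not transcribed. No mitochondrially encoded gene is among the symbols.

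The 3 libraries were alike but not identical. Pearson correlations of log2(CPM + 1) across genes were 0.9987 to 0.9991, and the chi-square per degree of freedom of each pair was 3.90 to 9.30, above the value near 1 that sampling alone would give. The median coefficient of variation over the 3 libraries was 13.6% for genes of 1 to 5 CPM and 3.80% for genes of 100 CPM or more. Replicate 3 held low counts of stromal genes that replicates 1 and 2 nearly lacked. COL1A2, a fibrillar collagen chain, had 0, 0 and 23 counts in replicates 1, 2 and 3, COL3A1 had 0, 2 and 18, DCN (decorin) 0, 1 and 25, and SPARC 0, 1 and 12. COL1A1 had 19, 13 and 61 counts. Of 2836 symbols that were not expressed but had at least 10 counts in all, 30 had 80% or more of them in replicate 3, against 9 in replicate 1 and 12 in replicate 2. The collagens and other genes named here stayed under 2 CPM in every library, and the values below that they touch are given per library.

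**Figure D1:**
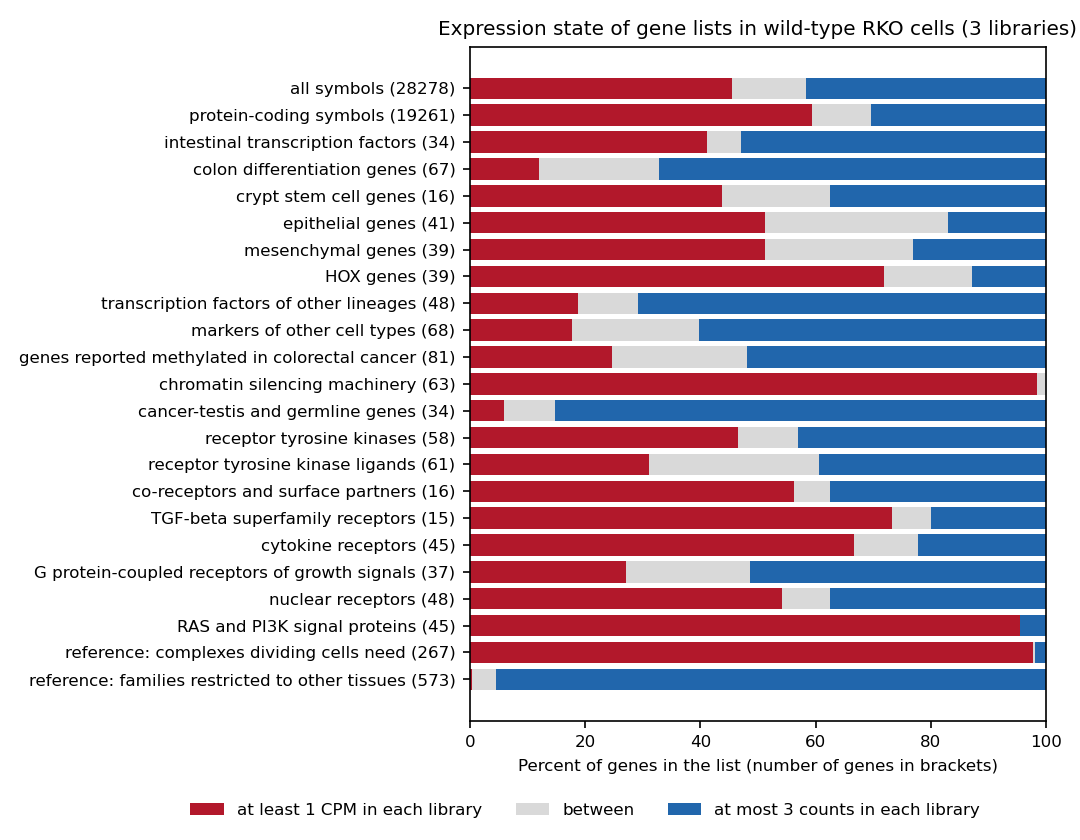
For each gene list, the bars give the percentage of its genes with at least 1 CPM in each of the 3 wild-type libraries (red), with at most 3 counts in each (blue) and in between (grey), beside all symbols and the protein-coding symbols; the number of genes is in brackets. Chromatin silencing genes and RAS and PI3K signal proteins are nearly all red, while colon differentiation genes, markers and factors of other lineages and cancer-testis genes are mostly blue.

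The most counted genes were those of protein synthesis, energy supply and the cytoskeleton. EEF1A1, the factor that brings aminoacyl-tRNA to the ribosome (chr6:73515750-73523797), had 18263, 18264 and 17997 CPM in replicates 1 to 3. GAPDH, a glycolytic enzyme, followed with 4704, 4854 and 5053 CPM, and EEF2, the translocation factor, with 4066, 4166 and 4519 CPM. The rest of the 20 most counted named genes included RPLP0, RPL8, RPS2, RPL13A, RPL3, RPS18 and RPL4 of the ribosome, FTL (ferritin light chain), ACTG1 and ACTB (actins), HSP90AB1 and HSP90AA1 (chaperones), PKM (pyruvate kinase), HMGA1, EEF1G and ITGB1 (the integrin beta 1 subunit). EEF1G shares 99.9% of its exon bases with the annotated gene AP002990.1, so its count is uncertain.

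As a share of all counts, the 89 ribosomal protein symbols took 7.50% ± 0.0819 (SD, n = 3), 37 translation factors 3.84%, 35 actin, tubulin and filament genes 2.22%, 22 chaperones 2.15% and 18 glycolysis genes 1.89%. All 18 glycolysis genes were expressed, beside 45.5% of all symbols and 59.4% of protein-coding ones. The 100 most counted symbols together took 19.5% and the 1000 most counted 48.5%. Ribosomal RNA symbols (18S, 28S, 45S and 5S) took 3.46% despite the selection for poly(A).

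Per kilobase, FTL came first, with 3730, 3825 and 3967 CPM per kilobase, and EEF1A1 second, with 3070, 3071 and 3026. LUZP6, next at 2978 ± 43.2 CPM per kilobase, is a short coding unit inside MTPN, with the same counts as MTPN in each library (17447, 17247 and 17139); its listed length is 177 bases. GAPDH, RPL41, RPL8, TMSB10 (thymosin beta 10, which binds actin monomers), RPS18, RPS2 and HMGA1 followed. HMGA1, an architectural chromatin protein abundant in embryonic and cancer cells, had 2596, 2716 and 2971 CPM and stood 10th per kilobase among the named genes. MUC1, RN7SL1 and RN7SL2, which are among the 10 most variable genes of at least 5 CPM, show how far single genes could move: MUC1, a membrane mucin, had 4.16, 4.33 and 7.23 CPM, a coefficient of variation of 33.0%.

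Markers of colon epithelium were divided. Of the 13 genes set as colon epithelium markers, 6 were expressed (among them CDX2, VIL1, EPCAM, KRT8 and KRT18) and 6 were at the floor (CDX1, CDH17, KRT20, LGALS4, GPA33 and CDH1). KRT19, a keratin of simple epithelia, had 1, 4 and 3 counts and lay between. Among all symbols 45.5% were expressed and 41.6% at the floor, and among protein-coding ones 59.4% and 30.4%. The marker counts lie near the shares over all symbols, so they do not by themselves show colon identity.

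Of 34 intestinal transcription factors, 14 were expressed (41.2%, against 59.4% of protein-coding symbols) and 18 were at the floor. CDX2, the homeobox factor that sets intestinal fate (chr13:27962137-27971139), had 18.8, 17.7 and 19.7 CPM. Its paralog CDX1 was at 0 in all 3 libraries. The libraries were close to each other for CDX2.

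The endodermal partners of CDX2 were divided within families. GATA4, a zinc finger factor usually found in the upper gut, had 25.0, 21.6 and 23.7 CPM, and GATA6, the family member of the colon, had 9.17, 8.44 and 9.23 CPM. Per kilobase GATA4 was 2.32 ± 0.0864 times GATA6 (SD, n = 3). GATA5 was at 0. Of the hepatocyte nuclear factors, HNF4G had 12.9, 10.2 and 9.89 CPM. HNF4A (chr20:44355700-44434596), the main nuclear receptor of enterocyte differentiation, was at 0. The pioneer factor FOXA1 had 10.8 ± 0.443 CPM, with FOXA2 and FOXA3 at 0.

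Among factors of the crypt and its lineages, VDR (the vitamin D receptor) had 12.4 CPM, KLF5 of the proliferating crypt 11.1, MYB 7.68 and KLF4 of the differentiated surface 4.84 CPM. SOX9, a factor of the crypt base, had 0, 2 and 0 counts, and ASCL2, the master factor of intestinal stem cells, was at 0. Of 6 secretory factors only GFI1 was expressed (9.20, 8.32 and 10.2 CPM), with ATOH1, SPDEF, NEUROG3 and NEUROD1 at the floor. GRHL1 had 8.05 CPM and OVOL2 2.24, and their epithelial relatives GRHL2, OVOL1 and EHF were at 0. Per kilobase the order of expressed factors began with GATA4 (5.27) and CDX2 (4.54 CPM per kilobase), and 9 of the 13 neighbouring pairs in it overlapped between libraries, so most places in that order are not settled.

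Genes of mature colon cells were mostly at the floor. Of 67 differentiation genes 8 were expressed (11.9%) and 45 were at the floor (67.2%), against 41.6% of all symbols and 30.4% of protein-coding ones. The absorptive group kept CA2 and CA4, carbonic anhydrases, at 21.2 ± 0.320 and 9.32 ± 0.304 CPM. It also kept VIL1 (villin of the brush border) at 18.5, 17.7 and 15.5 CPM and SLC9A3 (a sodium/proton exchanger) at 34.9, 32.7 and 35.9 CPM, but 44.0% and 56.7% of their exon bases lie in other genes. CDH17 (a liver and intestine cadherin) had 0, 0 and 2 counts, KRT20 had 2, 1 and 0, and FABP1, LGALS4, CEACAM5 and CEACAM6 were at 0.

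In each of the other lineages a smaller share of the listed genes was expressed than of all symbols (45.5%) or protein-coding ones (59.4%). The lists are short, and for tuft cells the share was 33.3%. Of 14 goblet cell genes MUC12, a membrane mucin, was expressed at 8.37, 8.08 and 7.05 CPM, and MUC2, TFF3, SPINK4, CLCA1, ZG16 and AGR2 were at 0. None of 5 Paneth cell genes was expressed. Of 10 enteroendocrine genes SYP (synaptophysin) had 2.60, 2.70 and 3.63 CPM and CHGA (chromogranin A) 1, 0 and 0 counts. Of 6 tuft cell genes IL17RB (11.8 CPM) and AVIL (1.61 CPM) were expressed, with TRPM5 and DCLK1 at 0.

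Of 16 stem cell genes of the crypt 7 were expressed (43.8%) and 6 were at 0 (37.5%), beside 59.4% and 23.4% of protein-coding symbols. Over all symbols the shares were 45.5% and 33.0%. CD44, a hyaluronan receptor, had 398, 409 and 380 CPM, EPHB2 36.7, 37.9 and 38.5 CPM and ZNRF3, a ubiquitin ligase that removes Frizzled receptors, 20.7, 19.4 and 20.8 CPM. CDCA7 had 85.0 CPM and BMI1 129 CPM, and TERT, the telomerase catalytic subunit, was low at 1.16, 1.75 and 1.75 CPM. RGMB had 359 CPM with 45.6% of its exon bases in other genes. LGR5, the defining receptor of these stem cells, had 0, 4 and 0 counts, and OLFM4, SMOC2, PROM1, LRIG1, TNFRSF19 and PTPRO were at 0.

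**Figure D2:**
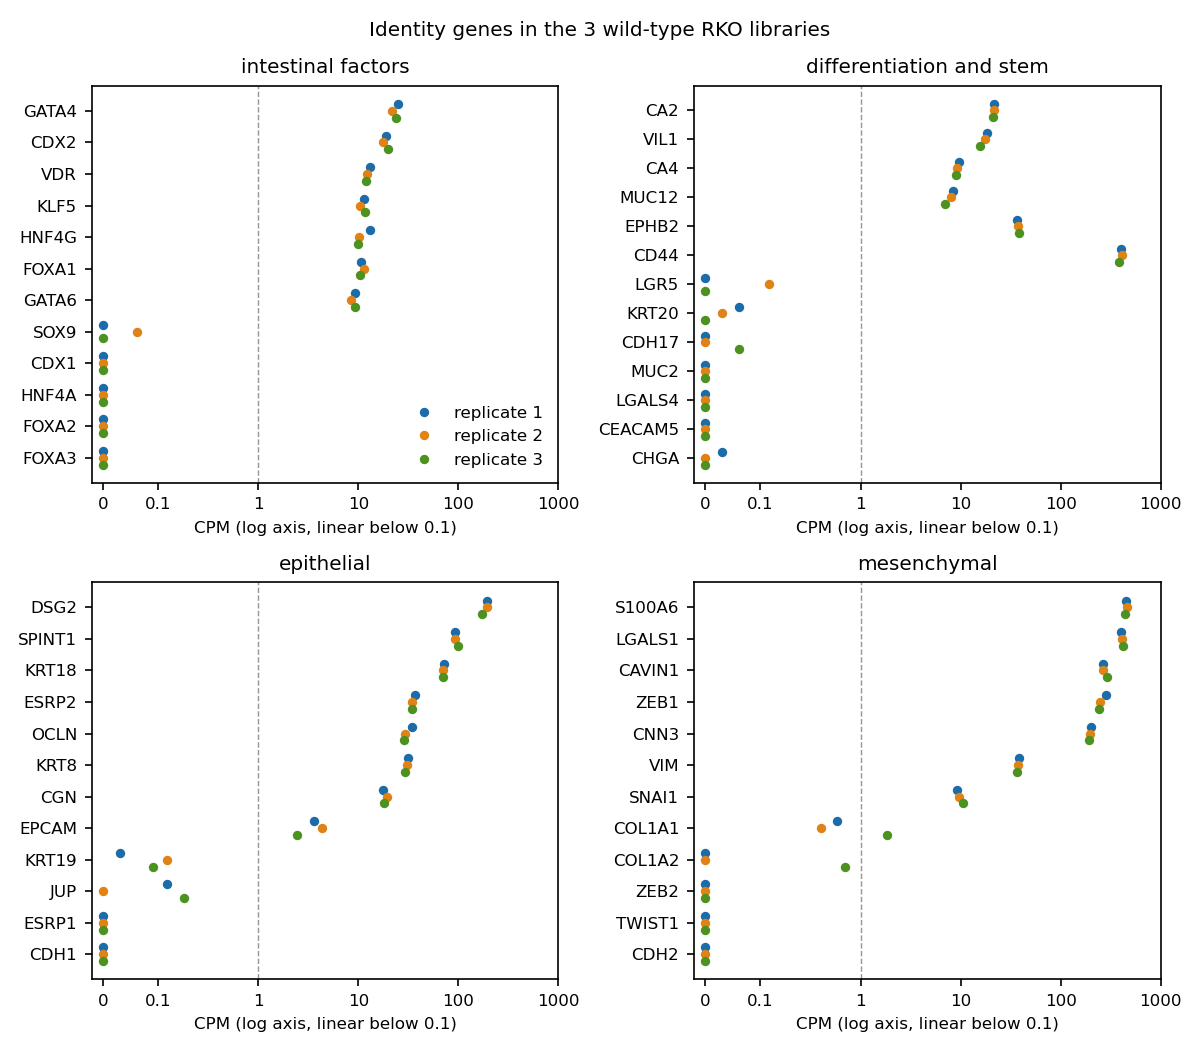
Points give the CPM of single genes in wild-type replicates 1, 2 and 3 for intestinal factors, differentiation and stem cell genes, epithelial genes and mesenchymal genes, on a log axis that is linear below 0.1; the dashed line marks 1 CPM. Levels of different genes are not scaled for length. CDX2 and GATA4 lie between 10 and 100 CPM while CDX1, HNF4A and CDH1 are at 0 in each library, and COL1A1 and COL1A2 are higher in replicate 3 than in the other libraries.

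Parts of both the epithelial and the mesenchymal lists were expressed. Of 41 epithelial genes 21 were expressed (51.2%) and 7 were at the floor (17.1%). Of 39 mesenchymal genes 20 were expressed (51.3%) and 9 were at the floor (23.1%). Among protein-coding symbols 59.4% were expressed and 30.4% at the floor, and among all symbols 45.5% and 41.6%. CDH1, the gene of E-cadherin (chr16:68737225-68835548), was at 0 in all 3 libraries, and so was ESRP1, a splicing factor of epithelial cells. ESRP2, its paralog, had 36.4, 34.3 and 34.4 CPM. EPCAM, an epithelial adhesion molecule, was low, with 119, 140 and 80 counts, 3.45 ± 0.953 CPM.

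Junction genes differed from member to member. DSG2, the desmosomal cadherin of simple epithelia, had 194, 192 and 173 CPM, and DSP (desmoplakin), PKP2 and PKP3 (plakophilins) had 20.2, 21.7 and 23.5 CPM. JUP, their armadillo partner plakoglobin, had 4, 0 and 6 counts. OCLN (occludin) had 31.0 CPM, CLDN1 was at the floor, and CLDN4 and CLDN7 stayed under 0.2 CPM in each library. KRT18 had 71.2, 69.3 and 70.4 CPM and its pairing partner KRT8 31.3, 30.5 and 29.1 CPM, with KRT18 at 4.97 ± 0.181 times KRT8 per kilobase. SPINT1, an inhibitor of membrane serine proteases, had 94.2 CPM, while the protease it inhibits, ST14 (matriptase), had 3, 3 and 8 counts.

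Of the 8 genes set as mesenchymal markers 2 were expressed (ZEB1 and VIM), 4 lay between and 2 were at the floor. Among 9 mesenchymal transcription factors 2 were expressed (22.2%, beside 59.4% of protein-coding symbols), both known repressors of CDH1. ZEB1 (chr10:31318495-31529814) had 286, 250 and 242 CPM and SNAI1 had 9.26, 9.58 and 10.6 CPM. ZEB2, TWIST1, TWIST2, PRRX1 and FOXC2 were at 0, and SNAI2 had 0, 0 and 7 counts. Of 11 filament and contractile genes 10 were expressed, among them CNN3 and CNN2 (calponins) at 197 and 171 CPM, TAGLN2 at 107 CPM, TPM2 at 99.6 and MYL9 at 79.3 CPM. VIM (vimentin) had 38.8, 37.2 and 36.3 CPM, with 24.4% of its exon bases in antisense or other genes.

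The surface and matrix genes were uneven. S100A6 had 452 ± 9.88 CPM, LGALS1 (galectin 1) 410 ± 10.4, CAVIN1 of caveolae 275 ± 13.9 and ITGA5, the fibronectin receptor alpha chain, 166 ± 9.28 CPM. CDH2 (N-cadherin) was at 0, FN1 (fibronectin) had 20, 37 and 41 counts, and S100A4 had 2, 6 and 5. The stromal genes that replicate 3 held are in this list: without replicate 3, 15 in place of 9 of the 39 mesenchymal genes were at the floor.

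All 4 HOX clusters held expressed genes. HOX genes lie in 4 clusters and are switched on in order along each of them, so that the set in use marks a position along the body axis. Of 39 HOX genes 28 were expressed (71.8%, beside 59.4% of protein-coding symbols) and 5 were at the floor: 8 of 11 in HOXA, 9 of 10 in HOXB, 7 of 9 in HOXC and 4 of 9 in HOXD. HOXA9 (chr7:27162435-27175180) had 58.9, 59.5 and 57.7 CPM and HOXB9 (chr17:48621159-48626356) 40.0, 37.2 and 40.7 CPM. Per kilobase HOXA9 (19.4) and HOXB9 (15.2) were first and second and did not overlap, with HOXA7 (11.1), HOXB7 (10.5) and HOXB2 (9.28) next. HOXA7 shares 62.5% and HOXA9 27.0% of their exon bases with other transcripts of the locus, HOXA-AS3 among them for HOXA7.

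By position, 8 of 12 genes of paralog groups 1 to 4, 10 of 11 of groups 5 to 8 and 10 of 16 of groups 9 to 13 were expressed, with median levels of 1.14, 3.32 and 2.38 CPM per kilobase. The hindgut genes HOXA13 and HOXB13 had 12.4 ± 0.246 and 15.2 ± 1.20 CPM. At the other end of activity, HOXD10, HOXD11, HOXD12 and HOXD13 had at most 5 counts in any library although HOXD8 and HOXD9, their neighbours, had 6.73 and 9.53 CPM. HOXB1 and HOXC12 were at 0 and HOXC13 had 10, 15 and 6 counts. Of 27 neighbouring pairs in the order per kilobase, 16 overlapped between libraries.

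**Figure D3:**
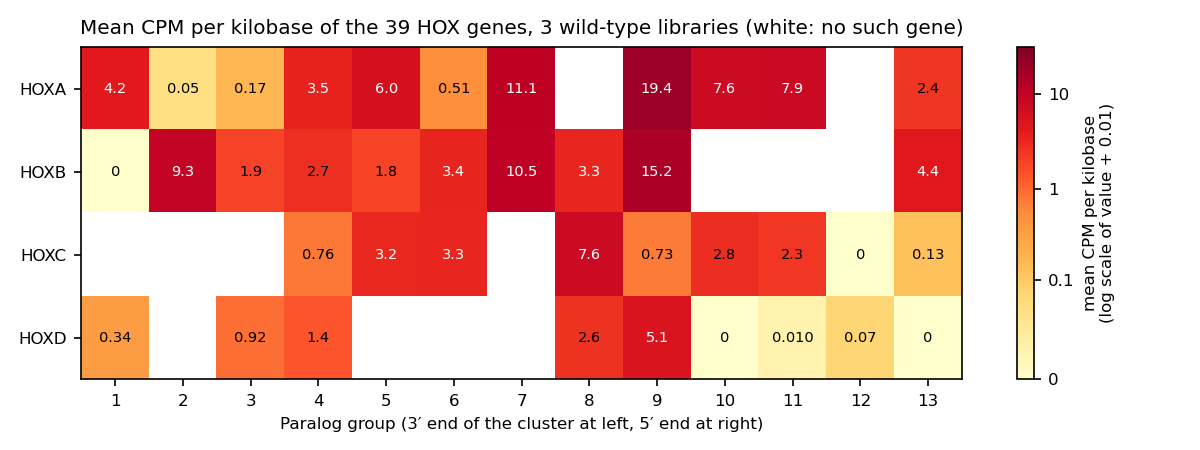
Each cell gives the mean CPM per kilobase of 1 HOX gene over the 3 wild-type libraries, with clusters in rows and paralog groups 1 to 13 in columns, on a log colour scale; white cells have no gene. HOXA and HOXB have expressed genes from group 1 or 2 to group 13, with HOXA9 at 19.4 and HOXB9 at 15.2, and the HOXD row falls to 0.07 or less from group 10.

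Factors and markers of other tissues were mostly at the floor, but not all. Of 48 transcription factors of other lineages 9 were expressed (18.8%) and 34 were at the floor (70.8%), beside 59.4% and 30.4% of protein-coding symbols. The exceptions included TCF7 (a lymphoid and Wnt pathway factor, 32.0 CPM), TRPS1 (23.2), RUNX2 of bone (22.3), NKX2-5 of heart (11.5, 11.2 and 12.9 CPM), MITF (9.29), PAX8 and PAX2 of kidney and thyroid (6.13 CPM each) and PDX1 of pancreas and duodenum (4.46, 4.79 and 5.54 CPM). TFAP2C had 2.06 CPM. GATA1, PAX5, GATA3, NKX2-1, SOX2, MYOD1, WT1 and SALL4 were at 0.

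Of 68 markers of other cell types 12 were expressed (17.6%) and 41 were at the floor (60.3%), beside 59.4% and 30.4% of protein-coding symbols. With a threshold of 5 CPM, 6 were expressed. CD68, a macrophage marker, accounted for most of the leukocyte signal at 744, 749 and 769 CPM, yet 85.8% of its exon bases lie in AC016876.2 and AC016876.1, while PTPRC, CD3E and TYROBP, which define leukocytes, were at 0. EGFL7 (123 CPM) was the expressed endothelial gene, with PECAM1, CDH5 and KDR at 0. MBP and GFAP of the nervous system had 25.4 and 4.12 CPM and SNAP25 5, 4 and 1 counts. Of the liver genes TF (transferrin) had 14.6 CPM, with ALB, TTR and AFP at 0. Fibroblast and muscle markers summed to 10.5, 12.2 and 16.3 CPM in replicates 1 to 3, with DES at 0 in each; the part of such cells in these values was not tested.

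Many genes known for promoter methylation in colorectal cancer were at the floor. Methylation was not measured here, and the list of 81 genes was drawn from general knowledge of the field. In it 20 genes were expressed (24.7%) and 42 were at the floor (51.9%), against 41.6% of all symbols and 30.4% of protein-coding ones. CACNA1G, NEUROG1, RUNX3 and CRABP1, panel genes for the methylator phenotype, were at 0, IGF2 had 0, 5 and 5 counts, and SOCS1 of the same panel was expressed with unequal libraries, at 51, 93 and 154 counts or 1.56, 2.86 and 4.66 CPM.

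Promoter sequences of 4 listed genes, picked for their high count of CpG dinucleotides, are given as examples. The 3 genes of the list at the floor with the most CpG dinucleotides in a window of 300 bases around the RefSeq start are BNC1 (basonuclin, an epithelial zinc finger factor), ID4 (an inhibitor of bHLH factors) and EYA4 (a transcriptional coactivator and phosphatase), each at 0 in all 3 libraries. MGMT, which removes alkyl groups from guanine, is the expressed gene with the most, at 930, 995 and 1015 counts (28.4, 30.6 and 30.7 CPM). The 250 bases before each start are printed 5′ to 3′ on the gene's strand with each CG in capitals, from RefSeq on GRCh38.p14: BNC1 at chr15:83284665-83284914 on the minus strand, and ID4 at chr6:19837120-19837369, EYA4 at chr6:133241107-133241356 and MGMT at chr10:129466991-129467240 on the plus strand.
BNC1: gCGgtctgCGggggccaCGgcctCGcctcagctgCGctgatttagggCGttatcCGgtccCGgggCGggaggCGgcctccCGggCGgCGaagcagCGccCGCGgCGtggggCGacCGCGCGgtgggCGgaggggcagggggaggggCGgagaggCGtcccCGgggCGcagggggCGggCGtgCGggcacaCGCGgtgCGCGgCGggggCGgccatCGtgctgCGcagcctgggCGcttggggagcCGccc
ID4: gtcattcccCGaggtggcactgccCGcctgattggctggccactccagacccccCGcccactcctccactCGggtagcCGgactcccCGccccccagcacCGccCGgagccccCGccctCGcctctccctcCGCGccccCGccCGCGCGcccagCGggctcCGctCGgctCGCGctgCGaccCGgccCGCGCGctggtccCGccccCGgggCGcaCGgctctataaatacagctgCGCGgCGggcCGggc
EYA4: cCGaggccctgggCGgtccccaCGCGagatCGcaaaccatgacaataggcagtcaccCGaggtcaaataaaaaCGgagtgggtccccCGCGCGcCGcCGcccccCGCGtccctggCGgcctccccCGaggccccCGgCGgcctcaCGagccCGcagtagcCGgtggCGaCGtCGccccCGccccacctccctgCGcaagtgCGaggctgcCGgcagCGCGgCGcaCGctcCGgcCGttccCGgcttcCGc
MGMT: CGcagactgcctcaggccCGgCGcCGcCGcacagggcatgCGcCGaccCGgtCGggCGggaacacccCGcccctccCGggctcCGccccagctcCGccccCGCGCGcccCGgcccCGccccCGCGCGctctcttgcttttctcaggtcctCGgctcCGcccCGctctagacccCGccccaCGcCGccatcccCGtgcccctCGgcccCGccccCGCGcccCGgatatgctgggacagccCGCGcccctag

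The printed bases hold 39 CG in BNC1, 34 in ID4, 36 in EYA4 and 36 in MGMT. The expressed MGMT thus lies within the range of the printed genes at 0. All were picked for high counts, so this likeness follows from the choice. CG reads the same on both strands and its matches cannot overlap. Over 18292 promoters of 300 bases the median was 20 and 51.3% held at least 20. Protein-coding genes at the floor had a median of 7 CG, and 27.8% of 4336 held at least 20; expressed ones had a median of 27, and 73.8% of 9328 held at least 20. Of the listed genes 55 of 81 had a promoter in the table. The 28 of them at the floor had a median of 25 CG, with 71.4% at 20 or more, and the 14 expressed ones a median of 30, with 64.3%. The list of genes reported methylated may hold promoters rich in CG by its choice, so its counts give no result beside those of other genes. The 46 colon differentiation genes with a promoter had a median of 5 CG, and 17.4% held at least 20.

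**Figure D4:**
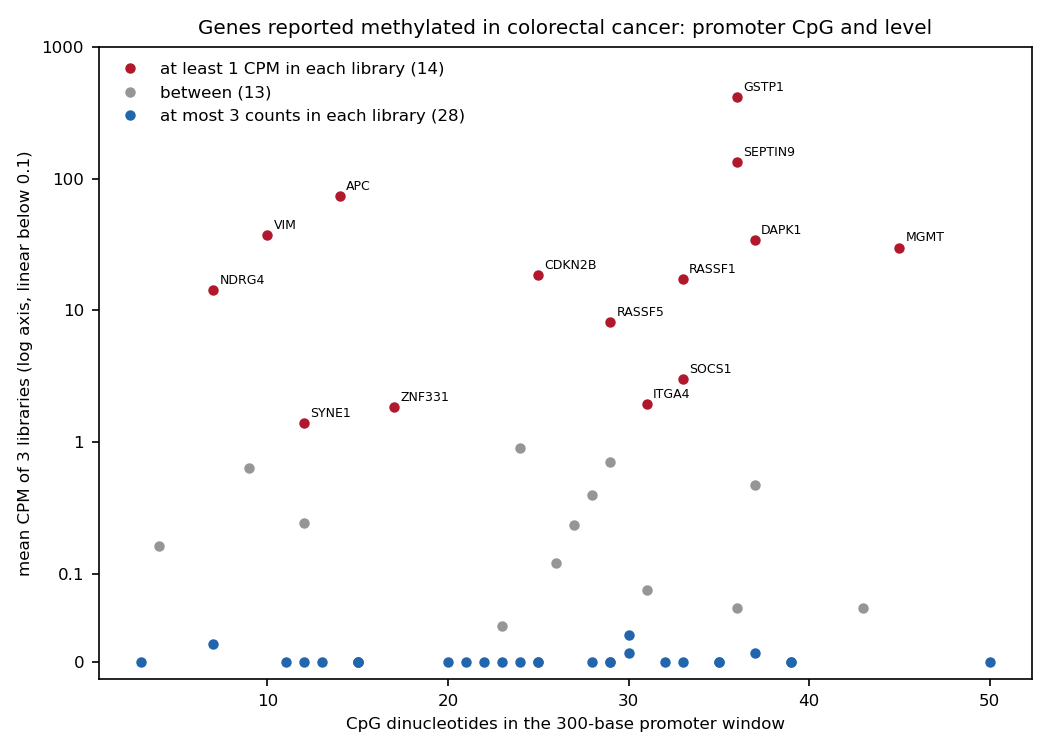
Each point is 1 of the 55 genes reported methylated in colorectal cancer that have a RefSeq promoter, by CG count in the 300-base window (horizontal) and mean CPM of the 3 libraries (vertical, log axis, linear below 0.1); colours give the expression state. The 28 genes at the floor spread from 3 to 50 CG and the 14 expressed ones from 7 to 45, so the groups overlap in CG count.

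Of 11 Wnt antagonists and related genes 9 were at the floor (81.8%, beside 41.6% of all symbols and 30.4% of protein-coding ones). SFRP1, a secreted Frizzled-related protein, had 0, 0 and 3 counts, and SFRP2, SFRP4, SFRP5, WIF1, DKK1 and SOX17 were at 0. APC, a scaffold of the beta-catenin destruction complex, had 81.5, 69.5 and 70.4 CPM and DKK3 1.93, 2.33 and 2.54 CPM.

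Of 9 genes of the cell cycle, cell death and RAS association 7 were expressed (77.8%, beside 45.5% of all symbols and 59.4% of protein-coding ones). CDKN2B, which encodes p15, had 613, 569 and 631 counts. CDKN2A, its neighbour that encodes p16 and is counted with the panel genes, had 11, 17 and 11. Per kilobase CDKN2B was 59.4, 35.7 and 61.2 times CDKN2A in replicates 1 to 3, a ratio that rests on few CDKN2A counts. DAPK1 (a death-associated kinase) had 34.2 CPM, HIC1 30.4, RASSF1 17.3, RASSF5 8.10 and CDKN1C 4.80 CPM. RASSF2 had 0, 0 and 2 counts and IRF8 was at 0.

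Of the repair and drug response genes, GSTP1 (a glutathione transferase) had 391, 419 and 432 CPM and WRN (a RecQ helicase) 47.6, 43.7 and 38.9 CPM. CHFR, a mitotic checkpoint ligase, had 11, 22 and 13 counts, and HLTF, a helicase-like factor, 14, 4 and 5. Among matrix and guidance genes ITGA4 alone was expressed (1.59, 2.27 and 2.00 CPM); TFPI2 had 0, 0 and 12 counts, ADAMTS1 0, 0 and 16 and SLIT2 0, 0 and 6, all in replicate 3. In the marker group SEPTIN9 had 134 CPM and NDRG4 14.3, and TMEFF2, NPY and SST were at 0. GATA4 and VIM, also in the list, are described above as expressed, and BNC1, ID4, EYA4, TWIST1 and IKZF1 were at 0.

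The enzymes that write and read silent chromatin were nearly all expressed, with 62 of 63 genes over the threshold (98.4%, beside 59.4% of protein-coding symbols) and none at the floor. DNMT1, the maintenance DNA methyltransferase, had 214, 210 and 226 CPM, and UHRF1, which brings it to replicated DNA, 216, 219 and 220 CPM. The de novo enzymes DNMT3A and DNMT3B had 17.4 ± 1.11 and 14.7 ± 0.874 CPM. TET2 and TET3, which oxidise methylcytosine, had 35.1 and 55.4 CPM, and TET1 was the exception of the list with 0, 2 and 4 counts. Per kilobase UHRF1 was 1.92 ± 0.0654 times DNMT1, but their CPM were alike, so this ratio comes from the exon lengths used.

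All 18 Polycomb genes were expressed, among them RBBP4 at 297, SUZ12 at 98.6, EZH2 at 53.2 and EED at 30.3 CPM. The 13 genes of H3K9 methylation and heterochromatin included TRIM28 at 372, 394 and 430 CPM and CBX3 at 217 CPM. The 17 deacetylases and corepressors included KDM1A at 183, HDAC1 at 157 and HDAC9 at 96.9 CPM. Of 34 cancer-testis and germline genes, whose promoters are methylated in most tissues, 29 were at the floor (85.3%, beside 30.4% of protein-coding symbols) and 2 were expressed: PRAME at 77.8, 84.4 and 81.0 CPM and ACTL8 at 1.19, 1.66 and 1.54 CPM. All 10 MAGE genes stayed under 1 CPM.

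Growth factor receptors ranged from well-expressed genes to the floor. Receptor tyrosine kinases carry a ligand-binding outer part and an inner kinase that signals through RAS and PI3K. Of 58 such genes 27 were expressed (46.6%) and 25 were at the floor (43.1%), beside 59.4% and 30.4% of protein-coding symbols. Over all symbols the shares were 45.5% and 41.6%. AXL, a receptor for GAS6 (chr19:41219203-41261766), had 634, 636 and 670 CPM. EPHA2, an ephrin-A receptor (chr1:16124337-16156087), had 288, 295 and 319 CPM, and MET, the receptor for HGF (chr7:116672390-116798386), had 232, 218 and 209 CPM. Per kilobase these 3 came first and did not overlap: AXL had 125 ± 3.91, EPHA2 72.3 ± 3.86 and MET 31.3 ± 1.66 CPM per kilobase (SD, n = 3).

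Behind them the levels per kilobase fell off gradually. EPHB4 (16.4), PTK7, a catalytically inactive Wnt pathway receptor (14.5), FGFR1 (13.8), LMTK2 (11.6), LTK (10.9), RYK, a Wnt-binding pseudokinase (10.2), and ERBB2 (10.2 CPM per kilobase) followed, and within this run PTK7 overlapped FGFR1, LMTK2 overlapped LTK, LTK overlapped RYK and RYK overlapped ERBB2. TYRO3 had 7.35, MST1R 5.44, IGF1R 4.86, INSR 4.70 and EGFR 4.46 CPM per kilobase, with IGF1R, INSR and EGFR overlapping in turn. FGFR3, FGFR4, DDR1, EPHB2, ERBB3, MERTK and FGFR2 ranged from 4.17 to 1.06. LMTK3, TIE1, DDR2, PDGFRB and EPHA10 ended the order between 0.516 and 0.145. In all 11 of the 26 neighbouring pairs overlapped between libraries.

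EGFR, the receptor for EGF and its relatives (chr7:55019021-55211628), had 55.3, 55.7 and 56.6 CPM. AXL was 28.1 ± 0.569 times EGFR per kilobase and MET 7.01 ± 0.448 times. ERBB2, which has no ligand of its own, had 102, 104 and 109 CPM, 2.28 ± 0.0577 times EGFR per kilobase, ERBB3 had 24.1 CPM and ERBB4 was at 0. All 4 FGF receptors, both MET family members, all 3 AXL family members and both collagen receptors were expressed. By contrast the 3 VEGF receptors and the 3 neurotrophin receptors were all at the floor, 8 of 14 Eph receptors were, and KIT, FLT3, ALK, ROS1, MUSK and ROR2 were at 0. RET had 0, 0 and 1 counts.

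**Figure D5:**
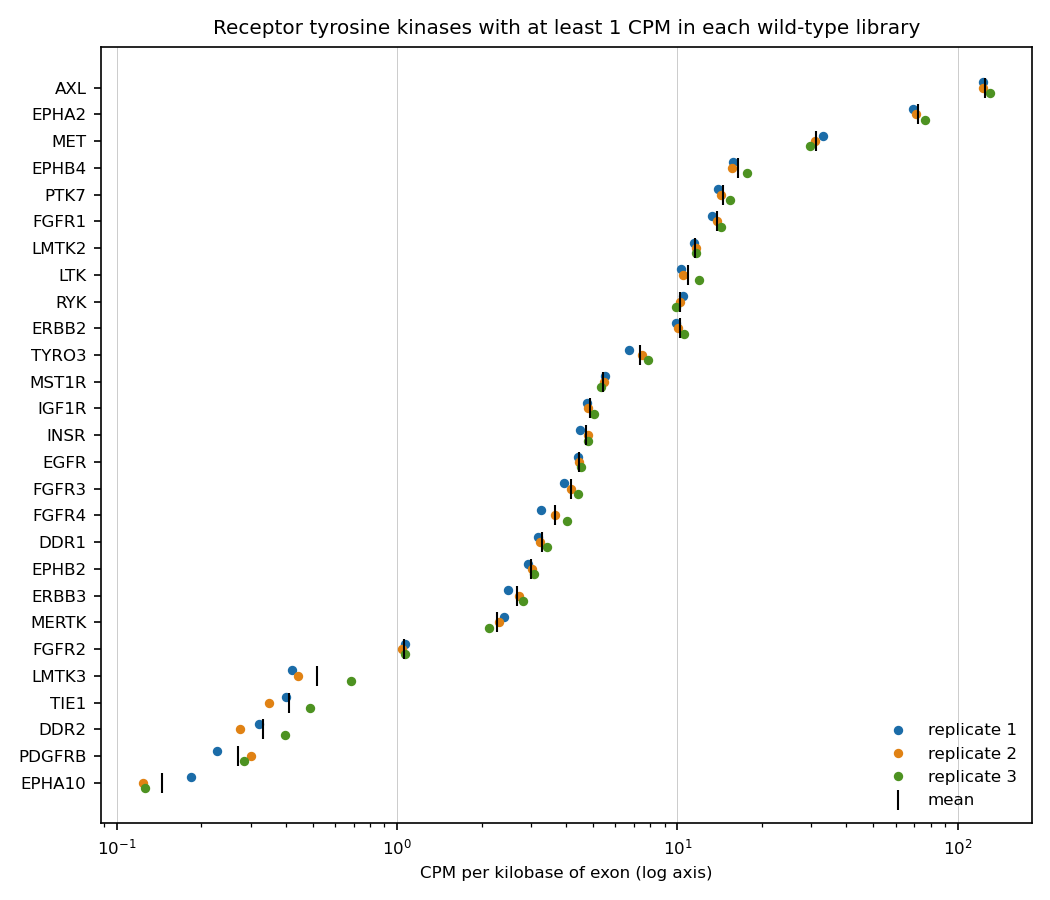
Points give CPM per kilobase of exon in wild-type replicates 1, 2 and 3 and bars their mean for the 27 receptor tyrosine kinases with at least 1 CPM in each library, on a log axis, ordered by the mean. AXL, EPHA2 and MET stand apart at 125, 72.3 and 31.3, and many of the receptors from PTK7 down overlap their neighbours.

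Of 61 ligand genes 19 were expressed (31.1%, beside 45.5% of all symbols and 59.4% of protein-coding ones), and 10 were with a threshold of 5 CPM. HGF, the MET ligand usually made by stromal cells (chr7:81699008-81770438), had 279, 278 and 259 CPM. Per kilobase MET was 1.13 ± 0.0341 times HGF. PROS1 (protein S) and GAS6, ligands of the AXL family, had 57.0 ± 3.17 and 38.2 ± 2.25 CPM. Per kilobase AXL was 12.0 ± 1.08 times PROS1 and 19.8 ± 0.539 times GAS6. VEGFA had 54.6, 55.3 and 58.2 CPM, VEGFB 41.3 and PGF 47.8 CPM, whose receptors FLT1 and KDR had 2, 0 and 0 counts and 0 counts.

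Of the EGF family, HBEGF had 31.4, 28.4 and 29.3 CPM, TGFA 15.9, 18.5 and 17.6 and NRG4 2.11, 2.40 and 2.39 CPM. AREG (amphiregulin) had 22, 17 and 20 counts, EREG (epiregulin) 0, 2 and 2 and EGF 0, 8 and 4. CSF1 had 19.6 CPM and KITLG 7.95, with their receptors CSF1R and KIT at the floor. IGF1 and INS were at 0. Of 20 FGF genes FGF5, FGF2 and FGF1 were expressed, at 4.47, 3.29 and 1.25 CPM, and 12 were at the floor. Per kilobase HGF (27.7) and VEGFB (26.7) led the ligands and overlapped.

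Of 16 surface partners of these receptors 9 were expressed (56.3%), near the 59.4% of protein-coding symbols. SDC4 and SDC1 (syndecans) had 197 and 145 CPM, LRP1 185, IGF2R 178, GPC1 (glypican 1) 88.1 and NRP1 (neuropilin 1) 82.4, 88.3 and 80.8 CPM. SDC2, GPC3, GFRA2 and NGFR were at 0.

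The signal path inside the cell was expressed almost throughout, with 43 of 45 RAS and PI3K genes expressed (95.6%, beside 59.4% of protein-coding symbols). SHC1, an adaptor, had 440, 460 and 472 CPM, PTPN11 (the phosphatase SHP2) 315 and GRB2 192 CPM. NRAS had 124 and HRAS 19.5 CPM, and BRAF had 66.8 ± 2.32 CPM. AKT1 had 171, 177 and 187 CPM, JAK1 140, SRC 129 and YES1 123 CPM. KSR2 had 0, 2 and 0 counts.

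Of 15 receptors of the TGF-beta superfamily 11 were expressed (73.3%, beside 59.4% of protein-coding symbols). TGFBR1 had 81.6, 85.3 and 79.4 CPM and TGFBR2, often mutated in tumours without mismatch repair, 27.0, 29.9 and 26.1 CPM. ACVR2B had 53.7, BMPR1A 40.6, ACVR1B 40.4 and BMPR2 30.0 CPM. ACVR1C, BMPR1B and AMHR2 were at the floor with 1 to 2 counts where they had any.

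Of 45 cytokine receptors 30 were expressed (66.7%, beside 59.4% of protein-coding symbols). The death receptor TNFRSF10B had 307, 317 and 297 CPM and TNFRSF10D, a decoy receptor for the same ligand TRAIL, 403, 430 and 399 CPM, which is 1.95 ± 0.0309 times TNFRSF10B per kilobase. TNFRSF12A had 181, TNFRSF1A 77.5, TNFRSF10A 67.4 and FAS 32.9 CPM. All 6 interferon receptor genes were expressed, with IFNAR1 at 96.4 and IFNGR2 at 89.9 CPM. IL6ST (gp130) had 129, 116 and 110 CPM and IL6R 35.4 CPM, while LIFR and CNTFR were at 0 and OSMR had 4, 4 and 0 counts. Of 8 haematopoietic and hormone receptors EPOR (11.6 CPM) and LEPR (4.35 CPM) were expressed.

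Of 37 G protein-coupled receptors for growth signals 10 were expressed (27.0%) and 19 were at the floor (51.4%), beside 59.4% and 30.4% of protein-coding symbols. ADORA2B, an adenosine receptor, had 58.9, 59.3 and 55.2 CPM, NTSR1 (a neurotensin receptor) 44.8, 47.1 and 54.8 CPM, S1PR2 26.5 and LGR4, a receptor for R-spondins, 18.8 CPM. P2RY11 had 28.4 CPM with 59.2% of its exon bases in other genes. CXCR4, LPAR1, S1PR1, F2RL1 and PTGER1 were at 0.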

How the data were processed

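The values are raw counts per gene symbol, whole numbers as deposited by the authors, 1 table per library. Per the labels' protocols, TRIzol RNA went into a VAHTS Universal library kit and onto an Illumina instrument. The submitters' processing notes name hg38, TopHat, limma and edgeR, with no roles. Which program counted the reads, with which annotation and strand setting, is not given in the sources used here, so reads of overlapping genes cannot be told apart.

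CPM was computed from library totals (Python 3.11.15, pandas 2.3.3). Symbols were matched to GENCODE 29, 26214 of 28278, for coordinates on hg38, exon length and the share of exon bases in other genes. Libraries were grouped by title. With 1 group there is no contrast, so nothing was tested; values are means ± SD over 3 libraries. The counting of levels was tested on simulated data.

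The members and the 22 gene lists were chosen with earlier results of these data known. Named were the 20 most abundant genes by CPM and per kilobase (uncharacterised, antisense, small RNA, pseudogene and readthrough symbols passed over), all expressed receptor tyrosine kinases, up to 6 expressed and 6 floor members per role of each other list, and the 10 most variable genes. Genes between these limits, and sets of genes shown as exceptions, were chosen after their values were seen. Alternatives were other thresholds, TMM scaling (edgeR 4.0.16), a total without ribosomal RNA and leaving out each library. Another length was used only for the 20 most abundant genes per kilobase. Some genes are not reported here.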

Additional observations from a re-analysis of the deposited data

How the results depend on the processing

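No paired analysis was possible because no groups are compared and no value comes from a test. Of 344 recomputed counts, shares and memberships of the 20 most abundant genes under the alternatives, 14 moved. With the length of the longest transcript, 17 of the 20 most abundant genes per kilobase were shared. The orders of the other lists and the ratios per kilobase were not recomputed. A count was said to have moved when it changed by more than a set ratio, or to or from 0. Smaller changes are not among the 14. With 5 CPM as the threshold, expressed genes fell from 12 to 6 among markers of other cell types, 2 to 1 among cancer-testis genes, 19 to 10 among receptor tyrosine kinase ligands and 2 to 0 among families restricted to other tissues. With 10 counts as the floor, epithelial genes at it rose from 7 to 15 and silencing genes from 0 to 1. With 0 counts as the floor, genes at it fell from 3 to 0 among TGF-beta superfamily receptors, 10 to 6 among cytokine receptors, 19 to 12 among G protein-coupled receptors, 18 to 11 among nuclear receptors, 2 to 1 among RAS and PI3K genes and 11 to 7 among the abundance classes. Without replicate 3, 15 in place of 9 mesenchymal genes and 1 in place of 0 silencing genes were at the floor. Leaving out replicate 1 or 2 and TMM scaling moved none of these counts. Of 140 named genes, 39 moved by more than their SD, all when ribosomal RNA was left out of the total, which raised every level by about 3.58%. Leaving out 1 of 3 libraries cannot shift a mean by its SD, so this rule could find no move there. The same holds for the shares of counts. Single means did shift, by -13.5% to 24.2% without replicate 1, -9.74% to 17.8% without replicate 2 and -27.0% to 18.6% without replicate 3. Depth limits every gene near the floor of 0.0908 to 0.0921 CPM.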

Other observations

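Nuclear receptors, which bind steroids, retinoids, fatty acids and other small molecules and act as transcription factors, were expressed in 26 of 48 cases (54.2%) and 18 were at the floor (37.5%), beside 59.4% and 30.4% of protein-coding symbols. Of the 6 steroid receptors NR3C2, the mineralocorticoid receptor, was expressed, at 6.60, 7.74 and 7.23 CPM. NR3C1, the glucocorticoid receptor and usually present in most cells, had 0, 2 and 0 counts, PGR had 2, 0 and 0 counts and ESR1 had 12, 2 and 2. Retinoid signalling genes were present, with RXRA at 77.0, RARG at 49.5 and RARA at 22.4 CPM, while RARB had 17, 8 and 9 counts. PPARA and PPARD had 50.1 and 36.4 CPM and PPARG 2, 0 and 0 counts. Of the orphan receptors ESRRA had 84.1, 81.4 and 83.8 CPM, NR2C2 79.8 and NR2F6 73.7 CPM. Per kilobase NR2F6 (27.5) and ESRRA (27.4) came first and overlapped, and 14 of the 25 neighbouring pairs in that order did.

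In several families an expressed member stood beside a paralog at 0 or at most 4 counts in any library: CDX2 and CDX1, FOXA1 and FOXA2, HNF4G and HNF4A, ESRP2 and ESRP1, ZEB1 and ZEB2, THRA and THRB, TET2 and TET1. TET3 was expressed as well, and other paralogs were expressed together, such as GATA4 with GATA6 and DNMT3A with DNMT3B. All of these pairs were picked after their values were seen and no test was made.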
